A study of Mus musculus with 12 samples.

Results

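The genes described are 10 established target genes of p53, the stress-activated transcription factor encoded by Trp53. They are Cdkn1a, Mdm2, Eda2r, Btg2, Ccng1, Bbc3, Bax, Trp53inp1, Sesn2 and Zmat3. They were taken by name, each through the probe set assigned to that symbol alone, and where a gene had several such probe sets the brightest over the 12 arrays was used. These genes and the lists below were chosen with earlier results of these data known. Their counts beside the shares of all genes are therefore descriptions and not independent tests. Of the 10 genes, 9 had such a probe set among the 22180 genes tested, each had 1 of them, and Bax is not analysed here. Trp53 itself is not analysed here either, so the text is about target genes and not about p53.

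p53 is kept low in resting cells by the ubiquitin ligase MDM2, and DNA damage or other stress frees it to switch on its target genes. Those targets fall into a feedback arm that returns p53 to a low level, an arm that stops the cell cycle, an arm that promotes cell death, and genes of autophagy, redox defence and RNA control. In fat, p53 activity is known from studies of adipocyte ageing and of brown fat differentiation.

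Expression was read on 12 Affymetrix arrays from cultured adipocytes. The cells came from inguinal adipose precursors of mice of the genotype R26Cre/Prdm16floxEx9, so a Cre recombinase at Rosa26, a locus active in most cell types, was combined with a loxP-flanked stretch of Prdm16, a regulator of brown and beige fat. There were 4 groups of 3 arrays. The precursors of the group 4OHT grew for 3 days with 1 uM 4-hydroxytamoxifen, which activates forms of Cre that are fused to an oestrogen receptor domain. The labels do not say whether this Cre is such a fusion. The group EtOH received ethanol, the vehicle, for the same 3 days. The groups 4OHT_Rosi and EtOH_Rosi had the same treatments and were then also stimulated with 1 uM rosiglitazone, an agonist of the fat cell receptor PPARgamma. All 4 groups were differentiated in medium with isobutylmethylxanthine, indomethacin, dexamethasone, insulin and T3, and all carried both the Cre and the floxed gene. Ligand, Cre activity and loss of Prdm16 therefore came together in the same groups and cannot be told apart. The arrays sampled the cells after differentiation, not during the 4-hydroxytamoxifen treatment. Levels are log2 values, on which 1 unit is a doubling, and differences are log2 fold changes with limma's standard error. Adjusted p means Benjamini-Hochberg over all 22180 genes in limma, and a gene was called at an adjusted p under 0.05.

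The arrays had medians between 5.97 and 6.05, and no label says that replicates are separate cultures, so p-values measure the spread between these arrays. Prdm16, the targeted gene, lay between 6.63 and 6.70 in 4OHT_Rosi, against 7.20 to 7.46 in EtOH_Rosi, and fell by 0.71 (SE 0.10, adjusted p = 0.000646). In 4OHT it lay between 6.33 and 6.59, against 6.49 to 6.84 in EtOH, and those arrays overlapped (adjusted p = 0.455). No label places its probes inside or outside the stretch between the loxP sites, so these values do not measure excision. Of the 10 adipocyte markers none had a mean level below 5.22, and the same held for the lists of progenitor, macrophage, endothelial and smooth muscle markers. That level is the 25th percentile of gene means and not a detection limit.

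p53 binds a pair of 10-base units, each made of 3 purines, C, 2 bases that are A or T, G and 3 pyrimidines, with up to 13 bases between them. The unit reads the same way on both strands. It was searched for in RefSeq promoter windows of the GRCm38.p6 build, from 250 bases before to 50 after each gene start. No mismatch was allowed, so near matches were neither counted nor marked. The table held windows for 7 of the 9 measured genes. A unit was present in the windows of 3 of those 7 genes (Cdkn1a, Mdm2 and Ccng1), against 9.55% of all 27025 genes with a window. A pair was present in 1 of them, Cdkn1a, and in 0.074% of all genes, which is 20 genes. The matching stretches, which end before the gene start, are shown because these are the genes of the list whose own windows carry the motif. Capitals mark the units.

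Cdkn1a: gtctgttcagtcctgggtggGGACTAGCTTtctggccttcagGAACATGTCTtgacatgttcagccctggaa

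Ccng1: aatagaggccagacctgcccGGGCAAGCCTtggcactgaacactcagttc

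Mdm2: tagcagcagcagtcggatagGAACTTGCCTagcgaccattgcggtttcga

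The Cdkn1a stretch is chr17:29090886-29090957 on the plus strand, and its units begin 73 and 51 bases before the more upstream of the 2 starts listed for the gene, with a spacer of 12 bases. The Ccng1 stretch is chr11:40755442-40755491 on the minus strand, with the unit 185 bases before the start. The Mdm2 stretch is chr10:117710915-117710964 on the minus strand, with the unit 186 bases before the start. A match is a description of letters and not a measured binding site, and many p53 sites lie outside such windows.

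The first comparison asked how these genes differed after 4-hydroxytamoxifen in adipocytes made without rosiglitazone. Trp53inp1, Cdkn1a and Ccng1 rose, by 1.32-fold, 1.18-fold and 1.16-fold, so the changes that passed were small. Of the 9 genes measured, 3 were called higher, where 2.13% of all genes were called higher, 1.79% lower and 3.91% in either direction. No member was called lower in limma, and none had a negative difference at an unadjusted p under 0.05, while 5 had a positive one, where 7.6% of all genes had a negative and 8.4% a positive one. The 9 differences were all above 0, with a median of 0.22, beside a median of 0.00 over all genes. In 5 of the 9 genes all 3 arrays of 4OHT lay above all 3 of EtOH, which was the case for 11.2% of all genes.

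Among the genes of cell cycle arrest, Cdkn1a encodes p21, the inhibitor of cyclin-dependent kinases through which p53 halts the cycle. It read 12.45, 12.48 and 12.46 in 4OHT, against 12.20, 12.23 and 12.25 in EtOH. The lowest 4OHT array stood above the highest EtOH array, and the difference was 0.24 ± 0.05 (adjusted p = 0.0211). Its mean level was above that of 99.3% of genes.

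Ccng1 encodes cyclin G1, an atypical cyclin that recruits a phosphatase to MDM2. It read 12.50, 12.55 and 12.58 in 4OHT, against 12.30, 12.33 and 12.34 in EtOH. The groups did not overlap, and the difference was 0.22 ± 0.05 (adjusted p = 0.0268), at a level again above 99.3% of genes. Btg2, an antiproliferative cofactor of mRNA deadenylation, read 8.61, 8.41 and 8.47 in 4OHT, against 8.53, 8.46 and 8.47 in EtOH. These arrays overlapped, and the difference was 0.01 with a 95% confidence interval of -0.14 to 0.16.

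In the feedback arm, Mdm2 read 9.95, 9.98 and 10.16 in 4OHT, against 9.82, 9.80 and 9.71 in EtOH. Its arrays did not overlap, yet the difference of 0.25 ± 0.07 stood just outside the threshold (adjusted p = 0.0552). It was called in 4 of the 9 alternatives that kept all the arrays of both groups, among which adjusted p ranged from 0.0201 to 0.106.

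Among the genes of cell death and autophagy, Trp53inp1 encodes a nuclear stress protein that promotes p53 activity and autophagy. It read 10.57, 10.49 and 10.54 in 4OHT, against 10.16, 10.15 and 10.10 in EtOH. All 4OHT arrays stood above every EtOH array, and the difference was 0.40 ± 0.07 (adjusted p = 0.0066). Eda2r encodes the X-linked receptor for the ectodysplasin isoform EDA-A2 and belongs to the tumour necrosis factor receptor family. It read 7.97, 8.03 and 8.12 in 4OHT, against 7.68, 7.77 and 7.65 in EtOH. The groups did not overlap, but at 0.34 ± 0.11 the difference did not pass (adjusted p = 0.117). Bbc3 encodes PUMA, the BH3-only protein that triggers mitochondrial cell death. It read 6.84, 6.98 and 6.65 in 4OHT, against 6.86, 6.80 and 6.80 in EtOH. The difference was below 0.01, with a confidence interval of -0.19 to 0.20.

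Sesn2 encodes a stress-inducible inhibitor of the growth kinase mTORC1. It lay between 8.70 and 8.74 in 4OHT, against 8.56 to 8.71 in EtOH, with a difference of 0.07 ± 0.07 (adjusted p = 0.689). Zmat3, an RNA-binding zinc finger protein, lay between 8.95 and 9.14 in 4OHT, against 8.76 to 8.96 in EtOH, with a difference of 0.16 ± 0.08 (adjusted p = 0.372). The arrays of both genes overlapped.

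Of the 3 calls, that of Trp53inp1 held in all 12 fits that left out 1 array and in all 9 other alternatives. Cdkn1a and Ccng1 were not called when any array of 4OHT or EtOH was left out, with adjusted p from 0.0512 to 0.0847 for Cdkn1a and from 0.0571 to 0.113 for Ccng1, nor under quantile normalization (adjusted p = 0.0522 and adjusted p = 0.0725).

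**Figure D1:**
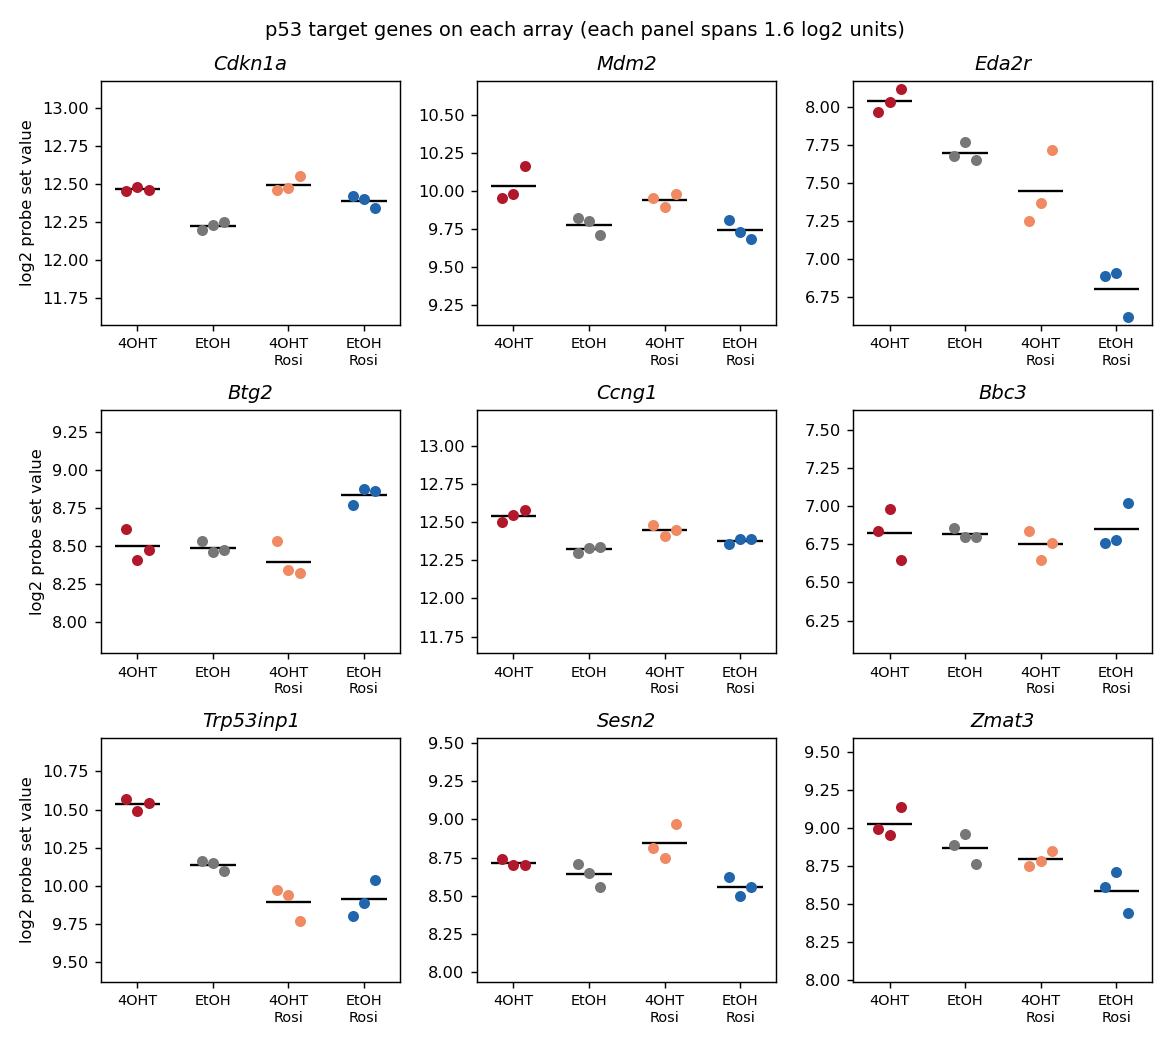
Log2 probe set value (vertical axis) of the 9 measured p53 target genes on each of the 12 arrays, by group. Points are single arrays and bars are means of 3, and each panel spans the same 1.6 log2 units; Trp53inp1 is highest in 4OHT, Eda2r is lowest in EtOH_Rosi, and Btg2 is highest in EtOH_Rosi.

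The second comparison set the same treatments against each other in adipocytes given rosiglitazone. Eda2r rose 1.56-fold and Sesn2 1.22-fold after 4-hydroxytamoxifen, and Btg2 fell to 0.739 of its EtOH_Rosi level. Of the 9 genes, 2 were called higher and 1 lower, where 4.65% of all genes were called higher, 3.38% lower and 8.03% in either direction. The median difference was 0.11, beside -0.01 over all genes, and 6 of the 9 differences were above 0. All 3 arrays of 4OHT_Rosi lay above all 3 of EtOH_Rosi in 6 of the 9 genes, and in 11.5% of all genes. In 1 gene, Btg2, they all lay below, as in 10.3% of all genes.

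Eda2r read 7.25, 7.37 and 7.72 in 4OHT_Rosi, against 6.89, 6.91 and 6.62 in EtOH_Rosi. The groups were well apart, although 4OHT_Rosi 3 stood above its own group, and the difference was 0.64 ± 0.11 (adjusted p = 0.0027). The difference ranged from 0.50 to 0.74 over the fits that left out 1 array, and all 12 of them called it. Sesn2 read 8.81, 8.75 and 8.97 in 4OHT_Rosi, against 8.62, 8.50 and 8.56 in EtOH_Rosi. Here too 4OHT_Rosi 3 was the highest array, and the difference was 0.28 ± 0.07 (adjusted p = 0.0197). Without 4OHT_Rosi 3 it was 0.22 and was not called (adjusted p = 0.0726), and the call was also lost without EtOH_Rosi 2 (adjusted p = 0.0821), without EtOH_Rosi 3 (adjusted p = 0.0548), and in a fit of the 2 groups alone (adjusted p = 0.0926).

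Btg2 went the other way. It read 8.53, 8.34 and 8.32 in 4OHT_Rosi, against 8.77, 8.87 and 8.86 in EtOH_Rosi. Every 4OHT_Rosi array stood below every EtOH_Rosi array, and the gene fell by 0.44 on the log2 scale (SE 0.07, adjusted p = 0.00196). All 12 fits without 1 array and all 9 other alternatives called this fall.

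The genes called without rosiglitazone were not called here, and the test of the difference between the effects follows. Cdkn1a read 12.46, 12.47 and 12.55 in 4OHT_Rosi, against 12.42, 12.40 and 12.34 in EtOH_Rosi, a difference of 0.11 ± 0.05 (adjusted p = 0.269). Ccng1 lay between 12.41 and 12.48 in 4OHT_Rosi, against 12.36 to 12.39 in EtOH_Rosi, a difference of 0.07 ± 0.05 (adjusted p = 0.521). In both genes the 2 groups did not overlap, by narrow margins. Trp53inp1 read 9.97, 9.94 and 9.77 in 4OHT_Rosi, against 9.80, 9.89 and 10.04 in EtOH_Rosi. Its arrays overlapped, and the difference was -0.02 with a confidence interval of -0.17 to 0.14.

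Mdm2 lay between 9.89 and 9.98 in 4OHT_Rosi, against 9.68 to 9.81 in EtOH_Rosi, a difference of 0.20 ± 0.07 (adjusted p = 0.0939). Zmat3 lay between 8.75 and 8.85 in 4OHT_Rosi, against 8.44 to 8.71 in EtOH_Rosi, a difference of 0.21 ± 0.08 (adjusted p = 0.152). The arrays of each gene did not overlap, without passing the threshold. Bbc3 overlapped again, between 6.65 and 6.84 in 4OHT_Rosi, against 6.76 to 7.02 in EtOH_Rosi (-0.10 ± 0.09, adjusted p = 0.587).

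**Figure D2:**
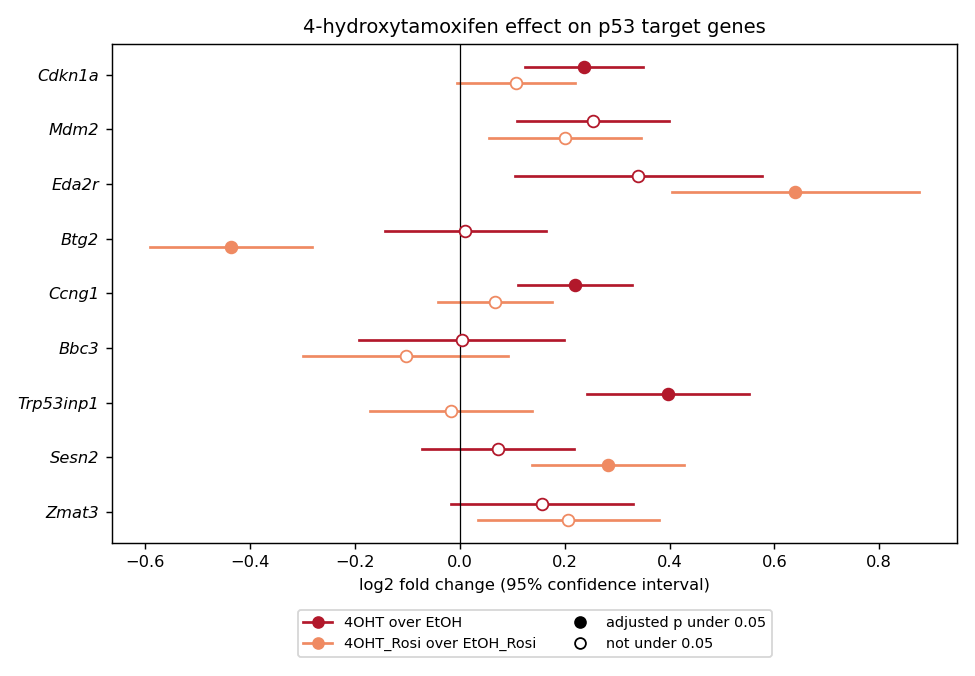
Log2 fold change with its 95% confidence interval (horizontal axis) of each measured p53 target gene after 4-hydroxytamoxifen, for 4OHT over EtOH and for 4OHT_Rosi over EtOH_Rosi. Filled points have an adjusted p under 0.05; Trp53inp1 reaches 0.40 without rosiglitazone and -0.02 with it, and Btg2 0.01 and -0.44.

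Whether the 4-hydroxytamoxifen effect differed with rosiglitazone was tested directly, as the effect with rosiglitazone minus the effect without it. None of the 9 genes was called in limma, against 1.01% of all genes (0.523% upward and 0.482% downward), and 3 had an unadjusted p under 0.05, as did 14% of all genes. Btg2 came closest, at -0.45 ± 0.10 (adjusted p = 0.0585), followed by Trp53inp1 at -0.41 ± 0.10 (adjusted p = 0.0805) and Sesn2 at 0.21 ± 0.09 (adjusted p = 0.341). Btg2 was called under 4 of the 8 alternatives other than leaving out an array, and without 4OHT_Rosi 1 (-0.51, adjusted p = 0.0243). Trp53inp1 was called under 3 of those 8 and without EtOH_Rosi 1 (-0.47, adjusted p = 0.0452). For Eda2r, the difference between effects was 0.30 ± 0.15 (adjusted p = 0.418), with a confidence interval of -0.03 to 0.63. For Cdkn1a it was -0.13 (interval -0.29 to 0.03), and for Mdm2 -0.05 (interval -0.26 to 0.15). The 2 comparisons with and without rosiglitazone therefore call different members without the difference between them having passed for any of the 9.

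The mean of the 4-hydroxytamoxifen effects without and with rosiglitazone, a comparison added after the values were seen, uses all 12 arrays. In it 6 of the 9 genes rose and 1 fell, where 5.45% of all genes rose and 4.22% fell. The rises were Eda2r (0.49 ± 0.08, adjusted p = 0.00116), Mdm2 (0.23 ± 0.05, adjusted p = 0.00802), Cdkn1a (0.17 ± 0.04, adjusted p = 0.00923), Ccng1 (0.14), Trp53inp1 (0.19) and Sesn2 (0.18). Btg2 fell by 0.21 (SE 0.05, adjusted p = 0.0162). Zmat3 differed by 0.18 ± 0.06 (adjusted p = 0.0629) and Bbc3 by -0.05 ± 0.06 (adjusted p = 0.732). The mean joins effects of 0.40 without and -0.02 with rosiglitazone for Trp53inp1, and of 0.01 and -0.44 for Btg2. Eda2r, Mdm2, Cdkn1a and Btg2 were called in all 12 fits without 1 array, Ccng1 in 10, and Trp53inp1 and Sesn2 in 4 each. Of the 8 other alternatives, Trp53inp1 was called in 6 and Sesn2 in 7. The count of 6 rises was 3 without 4OHT 3.

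The arrays with and without rosiglitazone were then compared within each treatment, on the same 12 arrays as the comparisons above, so that the Btg2 values of EtOH_Rosi, for instance, enter both. After ethanol, Eda2r fell by 0.89 on the log2 scale (SE 0.11, adjusted p = 2.5e-05), to between 6.62 and 6.91 in EtOH_Rosi, against 7.65 to 7.77 in EtOH. Zmat3 fell by 0.28 (SE 0.08, adjusted p = 0.0147) and Trp53inp1 by 0.23 (SE 0.07, adjusted p = 0.0271). Btg2 rose by 0.35 ± 0.07 (adjusted p = 0.00177), to between 8.77 and 8.87 in EtOH_Rosi, against 8.46 to 8.53 in EtOH, and Cdkn1a rose by 0.16 ± 0.05 (adjusted p = 0.0308). Thus 2 of 9 genes were called higher and 3 lower, where 14.4% of all genes were called higher, 16.3% lower and 30.7% in either direction. All arrays of EtOH_Rosi lay above all of EtOH in 3 genes, where 19.9% of all genes did, and below in 3, where 20.9% did. The Cdkn1a rise was not called under quantile normalization (0.11, adjusted p = 0.144) or with only the 2 groups fitted (adjusted p = 0.0701), nor the Trp53inp1 fall under median centring (adjusted p = 0.0613). The rise and the Trp53inp1 fall were each lost without any 1 of EtOH 1, EtOH 2, EtOH_Rosi 1 or EtOH_Rosi 2, with adjusted p from 0.0768 to 0.0937 and from 0.0758 to 0.116. Zmat3 was not called without EtOH 2 (adjusted p = 0.0717) or EtOH_Rosi 3 (adjusted p = 0.0716).

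After 4-hydroxytamoxifen, Trp53inp1 fell with rosiglitazone by 0.64 (SE 0.07, adjusted p = 2.03e-05), to between 9.77 and 9.97 in 4OHT_Rosi, against 10.49 to 10.57 in 4OHT. Eda2r fell by 0.59 (SE 0.11, adjusted p = 0.00117), to between 7.25 and 7.72 in 4OHT_Rosi, against 7.97 to 8.12 in 4OHT. The groups did not overlap in either gene. Zmat3 differed by -0.23 ± 0.08 (adjusted p = 0.0507), and was called lower in 6 of 9 alternatives and in 3 of the 12 fits without 1 array, with adjusted p from 0.0257 to 0.199. Btg2 differed by -0.10 ± 0.07 (adjusted p = 0.38) and Cdkn1a by 0.03 ± 0.05 (adjusted p = 0.756). In all, 2 of the 9 genes were called lower, where 12.1% of all genes were lower and 23.7% were called in either direction. All arrays of 4OHT_Rosi lay above all of 4OHT in 1 gene, where 18.1% of all genes did, and below in 4, where 18% did. No member was called higher in limma, and none had a positive difference at an unadjusted p under 0.05, where 16% of all genes had one.

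Markers of other cell types moved with rosiglitazone in the same arrays. After ethanol 8 of 9 adipose progenitor, 8 of 10 macrophage, 10 of 10 endothelial and 10 of 10 smooth muscle markers fell. Of 10 adipocyte markers 6 rose and 1 fell. In that comparison 16.3% of all genes were called lower and 14.4% higher. The log2 of the summed level of the progenitor markers lay between 13.49 and 13.82 in EtOH_Rosi, against 14.66 to 14.76 in EtOH, and that of the adipocyte markers between 15.92 and 15.96 in EtOH_Rosi, against 15.70 to 15.76 in EtOH. The part of these markers in the lower Eda2r, Zmat3 and Trp53inp1 levels was not tested. In RNA from a whole culture, fewer cells of a type and less RNA per cell cannot be told apart. In the first comparison the progenitor sum was lower in 4OHT (14.42 to 14.47) than in EtOH (14.66 to 14.76). So was the macrophage sum (12.97 to 13.12 in 4OHT, 13.14 to 13.32 in EtOH). The adipocyte sum was higher (15.77 to 15.81 in 4OHT, 15.70 to 15.76 in EtOH). Of 9 progenitor markers 1 rose and 1 fell, and of 10 macrophage markers 2 fell. Of 10 adipocyte markers 2 rose and 1 fell. Of all genes 2.13% were called higher and 1.79% lower. In the second comparison the smooth muscle sum was higher in 4OHT_Rosi (12.87 to 13.32) than in EtOH_Rosi (12.30 to 12.76). Of its 10 markers 5 rose, where 4.65% of all genes were called higher. The part of these marker lists in the results for the 9 genes was not tested.

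**Figure D3:**
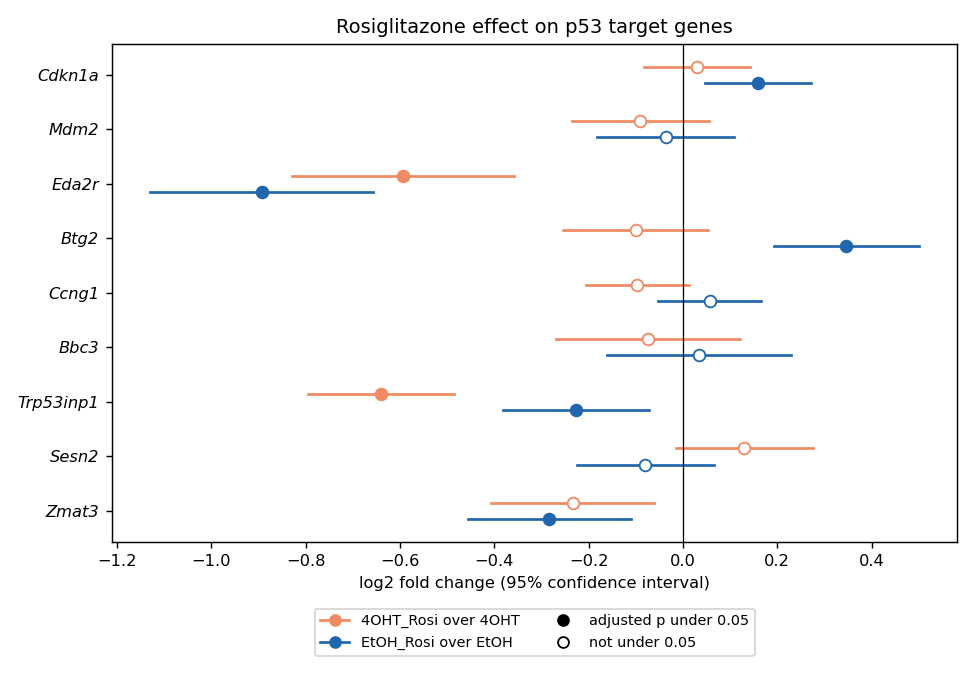
Log2 fold change with its 95% confidence interval (horizontal axis) of each measured p53 target gene with rosiglitazone, for 4OHT_Rosi over 4OHT and for EtOH_Rosi over EtOH. Filled points have an adjusted p under 0.05; Eda2r lies at -0.59 and -0.89, and Btg2 at -0.10 and 0.35.

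The group means of Eda2r spanned 1.23 log2 units, more than those of any other of the 9 genes, in the order 4OHT (8.04 ± 0.08, SD, n = 3), EtOH (7.70 ± 0.06), 4OHT_Rosi (7.45 ± 0.24) and EtOH_Rosi (6.81 ± 0.16). The neighbours 4OHT and EtOH did not pass the test, as given above, and the arrays of EtOH and 4OHT_Rosi overlapped. Trp53inp1 spanned 0.64, from 10.53 ± 0.04 in 4OHT through 10.14 ± 0.03 in EtOH to 9.91 ± 0.12 in EtOH_Rosi and 9.89 ± 0.11 in 4OHT_Rosi, and the last pair did not differ beyond its spread. Zmat3 and Btg2 both spanned 0.44, Mdm2 0.29, Sesn2 0.28, Cdkn1a 0.27, Ccng1 0.22 and Bbc3 0.10. Profiles were ranked among genes outside the 9, leaving out symbols of predicted genes, clones, microRNAs, small nucleolar RNAs and olfactory or vomeronasal receptors. Among those kept, the profile of Eda2r over the 12 arrays was most closely matched by the heparan sulphate proteoglycan gene Gpc4, with a root mean square difference of 0.06 after centring each gene, and then by Slco3a1 (0.08), Cfb (0.10), Nrcam (0.11) and Nnmt (0.12). Eda2r's own root mean square around its mean was 0.47. For Trp53inp1, at 0.27 around its own mean, the closest were Lrpap1 (0.08), Slc25a30 (0.09), Lrrn4cl (0.10), Thsd7a (0.10) and Tnfsf10 (0.11). These are descriptions over 12 arrays that share the 4 groups.

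Other p53 targets, a list of 34 genes of which 32 were measured, were described next to the first 9. The counts of this and the following lists stand against the same shares of all genes, 2.13% higher and 1.79% lower in 4OHT over EtOH, and 4.65% higher and 3.38% lower in 4OHT_Rosi over EtOH_Rosi. After 4-hydroxytamoxifen 2 of 32 rose without rosiglitazone, namely Ak1, an adenylate kinase (0.32 ± 0.07, adjusted p = 0.0149), and Phlda3, an inhibitor of the kinase AKT (0.28 ± 0.06, adjusted p = 0.0247). None was called lower, nor had a negative difference at an unadjusted p under 0.05, while 11 had a positive one, where 7.6% of all genes had a negative and 8.4% a positive one. Fas, the death receptor, differed by 0.35 ± 0.10 (adjusted p = 0.074), with 8.24 to 8.37 in 4OHT, against 7.92 to 7.99 in EtOH. With rosiglitazone 4 of 32 rose, namely Gtse1 (0.50 ± 0.11, adjusted p = 0.012), Ak1 (0.30 ± 0.07, adjusted p = 0.0127), Fas (0.41 ± 0.10, adjusted p = 0.0222) and Polk, a translesion DNA polymerase (0.30 ± 0.07, adjusted p = 0.0231). None was called lower there, and at an unadjusted p under 0.05 there were 12 positive and 2 negative differences, where 10.8% of all genes had a positive and 9.97% a negative one. Ppm1d, itself a p53 target, is counted in the next list and not in this one. It differed by -0.21 ± 0.07 without rosiglitazone (adjusted p = 0.138) and by -0.51 ± 0.07 with it (adjusted p = 0.000684). The medians of the list were 0.08 and 0.10, beside 0.00 and -0.01 over all genes.

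Of 21 measured genes that act on p53 or belong to its family, 1 rose without rosiglitazone, the kinase gene Hipk2 (0.27 ± 0.06, adjusted p = 0.0325). With rosiglitazone 2 rose and 1 fell. Ppm1d, the phosphatase WIP1 that dephosphorylates p53 and is itself a p53 target, fell by 0.51 (SE 0.07, adjusted p = 0.000684), to between 9.18 and 9.39 in 4OHT_Rosi, against 9.78 to 9.82 in EtOH_Rosi. The ubiquitin ligase gene Rchy1 rose by 0.39 ± 0.07 (adjusted p = 0.00277) and the p53 homologue Trp73 by 0.30 ± 0.06 (adjusted p = 0.00929). Trp73 was dim, at 5.92 to 6.06 in 4OHT_Rosi, against 5.62 to 5.74 in EtOH_Rosi.

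The relatives of the listed genes, Bax included, did not share one direction. Of 19 paralogs, 3 rose and 2 fell without rosiglitazone, and 1 rose and 1 fell with it. Cdkn1b, which encodes the p21 relative p27, fell in both: by 0.41 without rosiglitazone (SE 0.06, adjusted p = 0.00233) and by 0.45 with it (SE 0.06, adjusted p = 0.000668). Its arrays lay between 8.61 and 8.72 in 4OHT, against 9.05 to 9.12 in EtOH. They lay between 8.43 and 8.52 in 4OHT_Rosi, against 8.82 to 9.03 in EtOH_Rosi. Cdkn1c, another relative of Cdkn1a, rose without rosiglitazone by 0.30 ± 0.08, with an adjusted p that was just under the threshold and rounds to 0.05. With rosiglitazone Cdkn1c differed by -0.02 ± 0.08 (adjusted p = 0.937). Tob1, an antiproliferative relative of Btg2, rose without rosiglitazone (0.40 ± 0.07, adjusted p = 0.00392), as did Bak1, the partner of BAX at the mitochondrion (0.25 ± 0.05, adjusted p = 0.0166). Trp53inp2, the relative of Trp53inp1, rose in 4OHT_Rosi over EtOH_Rosi (0.23 ± 0.06, adjusted p = 0.0357). Of the 14 BCL2 family genes 1 rose (Bak1) and 1 fell without rosiglitazone, the second being Bok (-0.29 ± 0.07, adjusted p = 0.0476). With it 1 rose, the survival gene Bcl2 (0.58 ± 0.06, adjusted p = 0.000117).

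Cell cycle genes under the DREAM complex and E2F were called lower in 19 of 34 without rosiglitazone, where 1.79% of all genes were lower. Their median was -0.38. p21 is known to lower such genes, but a link between Cdkn1a and this fall was not tested. In the same arrays the log2 summed level of the progenitor markers was 14.42 to 14.47 in 4OHT, against 14.66 to 14.76 in EtOH. That of the macrophage markers was 12.97 to 13.12 in 4OHT, against 13.14 to 13.32 in EtOH. That of the adipocyte markers was 15.77 to 15.81 in 4OHT, against 15.70 to 15.76 in EtOH. The part of these markers in the fall of the cell cycle genes was not tested. The cell cycle genes that fell included Plk1 (-0.78 ± 0.09), Mki67 (-0.79 ± 0.10), Top2a (-0.61 ± 0.07) and Kif23 (-0.96 ± 0.13). With rosiglitazone 1 of 34 fell (Mki67, -0.35 ± 0.10, adjusted p = 0.0387) and 1 rose (Cdc25a, 0.46 ± 0.08, adjusted p = 0.00224), and the median was 0.00. The difference between those effects was called in 5 of 34, all upward, where 0.523% of all genes were called upward. In EtOH_Rosi against EtOH, 29 of the 34 fell, with a median of -0.74, where 16.3% of all genes were called lower. Of 15 genes of cyclin-dependent kinase inhibitors and G1 cyclins, 3 rose and 1 fell without rosiglitazone and 2 rose and 1 fell with it. Among them Ccnd1, cyclin D1, rose in 4OHT_Rosi over EtOH_Rosi by 0.80 ± 0.08 (adjusted p = 6.1e-05), and Cdk6 rose without it (0.27 ± 0.06, adjusted p = 0.0257) and with it (0.32 ± 0.06, adjusted p = 0.00543).

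Sesn2 is also known as a target of the integrated stress response through ATF4, so that list was read beside it. Of 15 genes, 4 fell without rosiglitazone, including Ddit4 (-0.59 ± 0.12, adjusted p = 0.0122), Trib3 (-0.38 ± 0.08, adjusted p = 0.0161) and Atf4 (-0.29 ± 0.07, adjusted p = 0.0333). With rosiglitazone 3 fell, including Shmt2 (-0.61 ± 0.08, adjusted p = 0.000269), and 1 rose, the cystine transporter gene Slc7a11 (0.68 ± 0.13, adjusted p = 0.00696). Atf4 differed there by -0.07 ± 0.07 (adjusted p = 0.637). A link between this list and the Sesn2 rise with rosiglitazone was not tested. Interferon-stimulated genes had the widest shifts of these lists in both comparisons: 22 of 23 rose without rosiglitazone, with a median of 1.23, and 23 of 23 with it, with a median of 1.51.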

How the data were processed

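The authors deposited log2 probe set values (41345 probe sets, 12 arrays). Affymetrix Expression Console made them, per the submitters' processing notes; how it summarised and normalized the probes is not stated there. Of the probe sets, 23521 had 1 gene symbol, 1814 several and 16010 none, and 23328 were matched by Entrez ID to RefSeq symbols. The brightest probe set stood for each gene, leaving 22180 genes with no filter on level. limma 3.58.1 (R 4.3.3) fitted 4 group means and eBayes moderated the spread (8 residual, 5.07 prior degrees of freedom); Benjamini-Hochberg adjustment ran over all genes. The code was tested on simulated data. Members and lists were chosen with earlier results of these data known. The genes named are the members, Prdm16, at most 4 of lowest p per list in each 4-hydroxytamoxifen comparison, and the 5 profiles nearest to each of the 2 members of widest range. Other members and symbols such as those of predicted genes were left out of the profile ranking. Alternatives were: replicate number as block; fitting just 2 groups; trended robust eBayes; weighting arrays; quantile or median scaling; dropping genes under the 25th or 50th percentile; averaging a gene's probe sets; and omitting single arrays. The number of arrays limits the precision. Plots used matplotlib 3.10.9 (Python 3.11.15).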

Additional observations from a re-analysis of the deposited data

Results flagged for a closer look

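In 3 cell cycle genes named above the 4-hydroxytamoxifen effect differed with rosiglitazone by the test of the difference itself in limma. The effect with rosiglitazone minus that without it was 0.73 ± 0.12 for the mitotic kinase gene Plk1 (adjusted p = 0.0205), 0.57 ± 0.10 for the topoisomerase gene Top2a (adjusted p = 0.0249) and 0.90 ± 0.19 for the mitotic kinesin gene Kif23 (adjusted p = 0.0426). These 3 were named for a small p in 4OHT over EtOH. That effect enters the difference, so the choice favours a large one. Means in EtOH_Rosi and EtOH were 7.48 and 8.72 for Plk1, 7.02 and 8.26 for Top2a, and 6.19 and 7.56 for Kif23. Plk1 lay between 7.27 and 7.61 in 4OHT_Rosi, against 7.45 to 7.54 in EtOH_Rosi, and between 7.80 and 8.10 in 4OHT, against 8.70 to 8.75 in EtOH. No p53 target among the 9 measured met this test. Dixon's test for a single outlying array was not run on groups of 3.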

How the results depend on the processing

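For the 9 genes in the 5 planned comparisons the alternatives gave 936 values, of which 859 kept direction and side of the threshold, 35 lost the call, 28 gained it and 14 changed sign. Members higher in 4OHT over EtOH (3) numbered 1 with the replicate block (Cdkn1a adjusted p = 0.0531, Ccng1 adjusted p = 0.0625), 1 under quantile normalization, 5 with array weights and 1 to 4 when 1 array was left out (1 without any array of 4OHT or EtOH). All genes called there (868) numbered 2242 with array weights and 475 to 1059 without 1 array. With rosiglitazone, a fit of the 2 groups alone called 1 member higher in place of 2, and 829 genes in place of 1782; without 1 array these were 1 to 2 and 1182 to 1712. In EtOH_Rosi over EtOH, 1 member rose in place of 2 with the replicate block (Cdkn1a adjusted p = 0.0596, with Trp53inp1 at adjusted p = 0.0513), in a fit of the 2 groups alone and under quantile normalization; without 1 array 1 to 2 rose and 1 to 3 fell (1 without EtOH 2). In 4OHT_Rosi over 4OHT the intensity trend called 4 members lower in place of 2. For the difference between effects, members called (0) numbered 2 with the trend, 2 with array weights, 1 and 2 with the 25th and 50th percentile filters, and 0 to 1 without 1 array. Genes called there (223) numbered 116 with the block, 393, 396 and 381 with the trend, weights and 50th percentile filter, and 51 to 331 without 1 array. For the mean effect 3 to 6 members rose without 1 array. Signs turned for Trp53inp1 with rosiglitazone (0.0165 with array weights, -0.0717 to 0.0483 without 1 array) and for Ccng1 in EtOH_Rosi over EtOH (-0.0131 under quantile normalization). Without 1 array they also turned for Btg2 (-0.0467 to 0.0533) and Bbc3 (-0.075 to 0.09) in 4OHT over EtOH, Bbc3 in EtOH_Rosi over EtOH (-0.05 to 0.08) and in 4OHT_Rosi over 4OHT (-0.16 to 0.005), and for the difference between effects of Mdm2 (-0.0933 to 0.0117) and Zmat3 (-0.0233 to 0.1117). None of these sign changes concerned a called value, and the cause was not tested. Same-numbered arrays did not deviate together (r from -0.24 to 0.08 over 18 pairs), so the numbers were not taken to pair them.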
